A study of Mus musculus with 2 samples.

Results

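The lysosome is the acidic compartment in which a macrophage breaks down what it has engulfed, and its genes were described here as a set of 41. They were taken by symbol from a fixed list of soluble enzymes and cofactors, membrane proteins, subunits of the proton pump, and transcription factors of the MiT/TFE family. All 41 were found among 55536 annotated gene entries, and all 41 are annotated as protein-coding. RNA came from primary bone-marrow-derived macrophages of C57BL/6J mice treated with Lipid A, the part of bacterial lipopolysaccharide that macrophages sense. The dose was 100 ng/ml and the time 60 min. A label describes the RNA as nucleoplasmic, others name only the nucleus, and ribosomal RNA was depleted before sequencing. The data formed 1 group of 2 biological replicates, started from 1 µg of RNA (replicate 1) and 500 ng (replicate 2). Sex and age of the mice are not given.

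Lysosomal hydrolases work at low pH, which the vacuolar ATPase maintains by pumping protons across the lysosomal membrane. Its V1 part splits ATP in the cytosol and its V0 part carries protons through the membrane. Heavily glycosylated membrane proteins line the compartment, and channels and transporters return lipids and ions to the cytosol. The MiT/TFE factors TFEB, TFE3, TFEC and MITF bind an E-box that many lysosomal promoters carry, the CLEAR element. TFEB is known as the factor that raises lysosomal genes together when nutrients are short. Macrophages are rich in lysosomes, and osteoclasts, which share their lineage, use the same pump to acidify bone.

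The gene tables held 21256531 expected counts in replicate 1 and 15643649 in replicate 2. An expected count is an estimated number of reads that need not be whole. Levels are given as TPM, a share of the library after division by effective length, so that genes of different length can be compared. Between replicate 2 and replicate 1 the median log2 ratio of TPM was -0.42 over expressed coding genes and -0.45 over the 41 genes, of which 39 were lower in replicate 2. Of 10 macrophage markers, 10 reached a TPM of at least 1 in both replicates. The summed TPM in replicates 1 and 2 was 5.17 and 4.56 for 8 neutrophil markers and 3.26 and 3.83 for 7 dendritic cell markers. It was 0.12 and 0.11 for 7 lymphoid markers, and 0.11 and 0.25 for 5 stromal markers. Mitochondrial transcripts, made outside the nucleus, held 5.1% and 6.17% of TPM, so cytoplasmic RNA may be part of every level below. Its part in the levels was not tested. Purity of the fraction was not assessed. No unstimulated library, other fraction or other time was analysed here, and no gene is described as induced or repressed. With 1 group, no test between groups and no p-value can be had, and each error is the spread of 2 replicates that share a donor label.

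Short stretches of promoter are shown first, because they hold the E-box letters that MiT/TFE factors are known to bind. Windows of 250 bases before to 50 bases after the start of transcription came from RefSeq on GRCm38.p6, the build of the files. Of the 41 genes, 36 had a window, and Asah1, Atp6v1h, Atp6v0d2, Atp6v1b2 and Npc1 had none. The 5 genes below hold the E-box core with T before it and A after it, or, in Cln3, with GT before and AC after. Each is printed in the direction of its gene, and capitals mark the E-box. Cln3 is at chr7:126583349-126583378 on the minus strand, Atp6v1a at chr16:44139364-44139431 on the minus strand and Mcoln1 at chr8:3500433-3500486 on the plus strand. Gla is at chrX:134601173-134601255 and Atp6v0d1 at chr8:105566041-105566108, both on the minus strand. In the GENCODE models, all 30 bases of the Cln3 stretch are exonic and the Atp6v1a stretch lies in an intron. Exons cover 30 of the 54 bases for Mcoln1, 7 of the 68 for Atp6v0d1 and none for Gla, which lies outside its gene.
Cln3: tggaaggctcacgggtactgTCACGTGAcc
Atp6v1a: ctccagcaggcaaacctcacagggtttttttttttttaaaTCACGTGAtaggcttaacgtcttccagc
Mcoln1: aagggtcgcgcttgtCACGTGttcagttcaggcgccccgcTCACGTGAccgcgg
Gla: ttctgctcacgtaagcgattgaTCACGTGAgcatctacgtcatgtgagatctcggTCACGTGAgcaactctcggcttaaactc
Atp6v0d1: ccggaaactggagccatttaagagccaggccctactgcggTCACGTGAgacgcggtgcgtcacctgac

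Lamp1 is added because it held the most cores of any gene of the set, and it was chosen after its sequence was seen. Its stretch is at chr8:13159090-13159161 on the plus strand and ends at the first base of the gene. It holds 4 copies of the core alone, none of them with both T before and A after.
Lamp1: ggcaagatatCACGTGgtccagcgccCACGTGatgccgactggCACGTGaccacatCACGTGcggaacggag

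In all, 3 spellings were searched: the core CACGTG, the longer TCACGTGA and the longest GTCACGTGAC. Each longer form contains the shorter ones, and all read the same on both strands. The core was in the window of 11 of the 36 genes (30.6%), against 8.09% of 27025 genes with a window. Among 2550 coding genes with a window that reached 10 TPM in both replicates, 13.4% held it. TCACGTGA was in 5 of 36 (13.9%), against 1.12% of all genes and 3.29% of the expressed ones. GTCACGTGAC was in Cln3 alone (2.78%), against 0.37% and 1.37%. The core contains a CpG, and the median window held 14 CpG in the set, 22 in the expressed genes and 7 over all genes. Their median GC was 56.7%, 62.0% and 52.7%. These shares are descriptions, since the genes were listed as lysosomal and many such genes are known to carry the element. A match shows letters in a window, and not that a factor was bound there.

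The 17 cores stood at distinct positions, 11 of them within 100 bases before the start and none after it. Counted from the start to the first base of the core, Atp6v0d1 had its core at -3, Sgsh at -29, Glb1 at -48, Lgmn at -49, Naglu at -73, Atp6v1a at -131 and Gaa at -140. Lamp1 had cores at -61, -45, -28 and -15, and Mcoln1 at -71 and -45. Cln3 had cores at -149 and -121, and Gla at -227 and -194. By role, the core was in 4 of 9 glycan hydrolases, 3 of 8 membrane proteins and 2 of 4 pump genes with a window. It was in 1 of 4 lipid hydrolases and 1 of 5 proteases, phosphatases and nucleases. None of the 3 soluble cofactors and none of the 3 MiT/TFE genes held it. The median TPM of the genes that held the core was 37.6 in replicate 1 and 32.8 in replicate 2. It was 131 and 112 for those whose window lacked it. Lgmn, at 484 and 314 TPM, and Lamp1, at 350 and 275, held the core and were among the higher genes of the set. Genes with and without the core also differed in role, and the part of role in these medians was not tested.

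**Figure D1:**
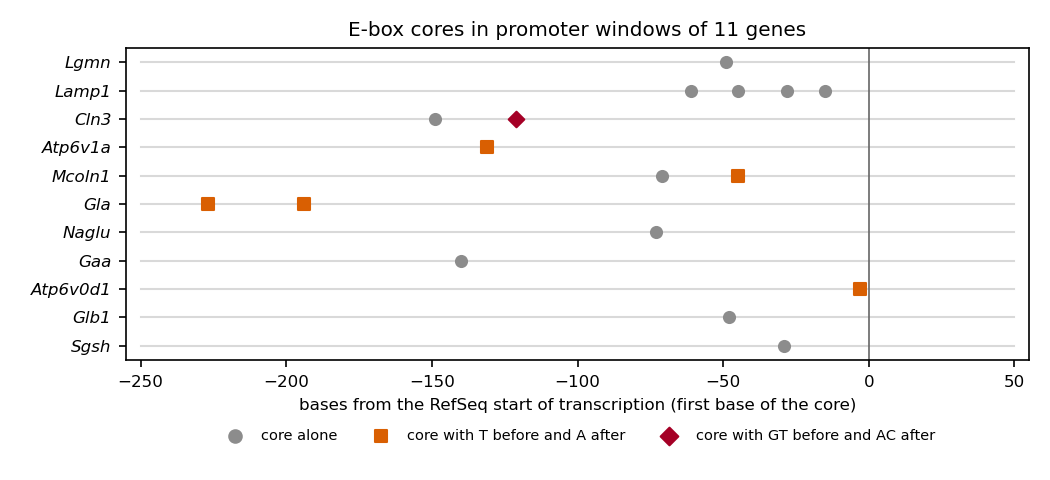
E-box cores in the promoter windows of the 11 genes that hold one, in bases from the RefSeq start of transcription (horizontal axis), with 1 row per gene and 1 symbol per core. Of the 17 cores, 11 lie within 100 bases before the start, and Lamp1 has 4 of them in a row.

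All 41 genes reached 1 TPM and a mean count of 50. A TPM of at least 10 in both replicates was reached by 36 of the 41 (14.4% of 22015 coding genes of the nuclear genome did so), and of at least 100 by 16 (1.39%). The median TPM of the set was 78.8 in replicate 1 and 60.3 in replicate 2, against 8.29 and 6.31 over the 8622 coding genes that reached 1 TPM in both. On the scale of log2(TPM + 1) the set's median was 6.13 ± 0.27 (SD, n = 2). TPM was lower in replicate 2 for most expressed coding genes, and this SD and those of the roles below include that shift. With TPM rescaled over coding genes of the nuclear genome the SD of the set's median was 0.03. The set took 4.92% and 4.80% of the TPM of coding genes of the nuclear genome, and 1.25% and 0.903% of all TPM. Of the 100 highest coding genes, 7 were of the set in replicate 1 and 8 in replicate 2, and of the 1000 highest, 25 and 26. The order within the set differed little between replicates: the 7 highest genes held the same places, and Spearman's rho was 0.98 over the 41 genes, which share both libraries. In bulk RNA, a change in the number of cells and in RNA per cell cannot be told apart.

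The soluble cofactors were the highest role, with a median log2(TPM + 1) of 9.24 ± 0.31 (SD, n = 2). Psap, at chr10:60277627-60302597 on the plus strand, encodes prosaposin, the precursor of the saposins that present sphingolipids to their hydrolases. It stood at 4468 TPM in replicate 1 and 3008 in replicate 2, the highest coding gene of the nuclear genome in both. Psap alone made up 35.7% and 33.3% of the TPM of the set. Grn encodes progranulin, a secreted and lysosomal protein that is cleaved into granulins, and stood at 701 and 520 TPM. Npc2, the soluble carrier that hands cholesterol to NPC1, stood at 160 and 154 TPM. The lowest Grn value was above the highest Npc2 value, and Psap was above both by more than the spread of the replicates.

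The 9 membrane proteins came next, at a median of 7.45 ± 0.28 (SD, n = 2), and spanned a wide range. Gpnmb, at chr6:49036546-49070929 on the plus strand, is a transmembrane glycoprotein of lysosomes and phagosomes and a known target of MITF. It stood at 2724 and 2000 TPM, place 3 and 4 among coding genes, and with Psap made up 57.5% and 55.5% of the set. The structural proteins of the lysosomal membrane were well below it, Lamp1 at 350 and 275 TPM and Lamp2 at 164 and 136. Laptm5, a lysosomal protein of blood cells, stood at 262 and 240 TPM. Cd63, a tetraspanin of late endosomes and lysosomes, stood at 200 and 221. The lowest Lamp1 value was above the highest of Laptm5, Cd63 and Lamp2. Cln3, mutated in juvenile Batten disease, stood at 224 and 151 TPM. Part of its model lies opposite Apobr, at 97.2 and 57.8 TPM, and reads from the 876 shared bases cannot be assigned where strand is unknown. The lower members were the cholesterol exporter Npc1 at 72.4 and 58.0 TPM and the cation channel Mcoln1 at 40 and 32.8. Scarb2, the receptor that carries glucocerebrosidase to the lysosome, was the lowest at 37.4 and 23.5.

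The 7 pump genes had a median of 6.26 ± 0.22 (SD, n = 2). Tcirg1 encodes the a3 form of the largest V0 subunit, the form of the osteoclast pump, and stood at 519 and 376 TPM. It was above each other pump gene of the set in both replicates. Atp6ap1, an accessory protein needed to assemble the pump, stood at 128 and 112 TPM. The V1 subunits that form the site of ATP hydrolysis were similar to each other, the catalytic Atp6v1a at 90.6 and 75.5 TPM and its partner Atp6v1b2 at 84.0 and 67.7. Atp6v1h, the subunit that regulates ATP hydrolysis, stood at 64.5 and 37.8. The ranges of Atp6v1a and Atp6v1b2 overlapped, with Atp6v1a above within each replicate, and the higher value of Atp6v1h was below the lowest of both. The d subunit joins V0 to the rotating stalk, and its forms Atp6v0d1 and Atp6v0d2 were the lowest, at 27.5 and 18.4 TPM and at 12.1 in both replicates.

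Subunits a, B and d each have alternative genes, and 1 gene of the set held most of the TPM of each. Tcirg1 held 73.4% and 76.8% of subunit a, and Atp6v0a1, which is not in the set, held 26.1% and 22.7%. Atp6v0a2 held 0.42% and 0.515%, and Atp6v0a4, known from kidney, was at 0 counts in both, which allows up to 3 counts. Atp6v1b2 held 99.9% of subunit B in both replicates, with Atp6v1b1 at 1 expected count in each. The d subunit was shared: Atp6v0d1 held 69.5% and 60.3% and Atp6v0d2 held 30.5% and 39.7%. Atp6v0d2 is the form known from osteoclasts and macrophages. Of 10 osteoclast markers, 3 reached a TPM of at least 1 in both replicates, with Tnfrsf11a, the receptor of RANKL, at 29.1 and 21.2 TPM. The list summed to 43.2 and 30.8 TPM, and the defining genes Calcr and Oscar were at 0 counts in both. The part of osteoclast-like cells in the levels of Tcirg1, Atp6v0d2 and Acp5 was not tested. Of 18 further pump genes, 10 reached a TPM of at least 10 in both replicates. The highest was Atp6v0b of the proton-carrying ring, at 410 and 298 TPM. It was followed by Atp6v0c of the same ring at 164 and 146 and by Atp6v0a1 at 185 and 111, which changed places between replicates.

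**Figure D2:**
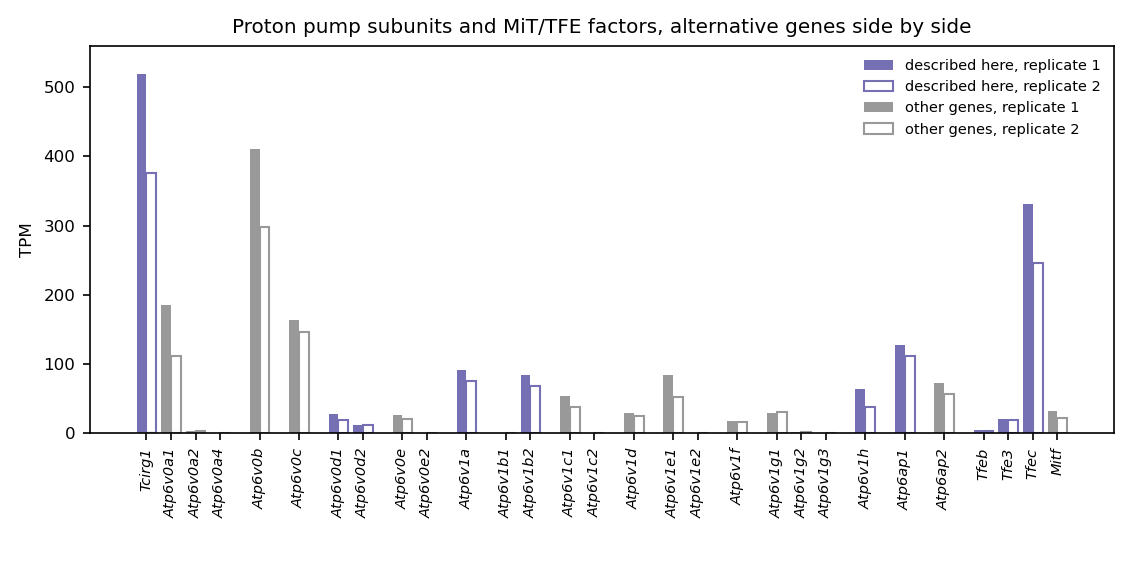
TPM (vertical axis, from 0) of each proton pump subunit gene and each MiT/TFE factor in replicate 1 (filled bars) and replicate 2 (open bars), with genes of the described set in purple and other genes in grey. Tcirg1 stands at 519 and 376 TPM above Atp6v0a1 for subunit a, and Tfec at 331 and 246 TPM above the other factors.

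The MiT/TFE factors themselves were unequal. Tfec, the family member known for its expression in macrophages, stood at 331 and 246 TPM and was among the 100 highest coding genes in both replicates. Tfe3, which is expressed in most tissues and acts with TFEB, stood at 20.0 and 19.7. Tfeb was the lowest gene of the whole set in the authors' gene table, at 4.44 and 2.50 TPM, from expected counts of 150 and 98. Its 95% Poisson intervals of 127 to 176 and 79.6 to 119 counts cover counting error only, since reads without molecular identifiers are not independent. In the authors' second transcript table Tfeb stood at 4.39 and 4.43 TPM and was not the lowest, as Sgsh stood at 3.74 and 3.54. Tfec held 85.4% and 84.9% of the TPM of the family. Mitf, which is not in the set, stood at 32.0 and 21.5 TPM and held 8.27% and 7.43%, Tfe3 held 5.16% and 6.79%, and Tfeb 1.15% and 0.864%. By the second transcript table Tfec held 81.4% and 81.8% of the family and Tfeb 2.6% and 2.33%. These are levels of RNA in the fraction, while TFEB and TFE3 are controlled mainly by phosphorylation and entry into the nucleus, which were not measured. Of 22 genes listed around TFEB, such as the Rag GTPases, folliculin and Mitf, 11 reached a TPM of at least 10 in both replicates. Highest among them was Fnip2, a partner of folliculin, at 123 and 84.1 TPM. The 6 pigment cell markers, which share MITF targets such as Gpnmb, summed to 0.22 and 0.26 TPM.

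The 5 proteases, phosphatases and nucleases had a median of 6.13 ± 0.27 (SD, n = 2). Lgmn, the asparagine-specific protease legumain, led them at 484 and 314 TPM. Pld3, a lysosomal exonuclease of single-stranded nucleic acids, stood at 296 and 154. Tpp1, a tripeptidyl peptidase, stood at 78.8 and 60.3, and Acp2, the lysosomal acid phosphatase, at 73.5 and 58.3. Acp5, the tartrate-resistant acid phosphatase used to stain osteoclasts, was the lowest at 15.6 and 8.34. Lgmn and Pld3 were each above the other 3 in both replicates, and Tpp1 and Acp2 overlapped, with Tpp1 above within each replicate. Cathepsins, the main lysosomal proteases, were not in the set. Of 14, 8 reached a TPM of at least 100 in both replicates, with Ctsb at 1976 and 1450 TPM and Ctsd at 1520 and 1162.

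The lipid hydrolases had a median of 5.97 ± 0.03 (SD, n = 2). This small SD is that of Asah1, the middle gene in both replicates, and does not show closer agreement of the whole role. Lipa, the acid lipase that frees cholesterol from its esters, stood at 187 and 136 TPM, and Hexa, which trims gangliosides, at 186 and 155. Their ranges overlapped, and they changed places between replicates. Asah1, the acid ceramidase, stood at 62.6 and 60.8 TPM. Galc, which removes galactose from galactosylceramide, stood at 42.0 and 31.9, and Gla, the galactosidase lost in Fabry disease, at 35.1 and 35.0. The lipid hydrolases thus formed a high pair and a lower trio, with no overlap between the pair and the trio.

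The 9 glycan hydrolases lay lower, at a median of 4.42 ± 0.38 (SD, n = 2), and none reached a TPM of 100 in both replicates. Man2b1, the lysosomal alpha-mannosidase, was the highest at 131 and 93.6 TPM, and Gusb, the beta-glucuronidase, followed at 81.7 and 47.6. Naglu and Sgsh both act on heparan sulfate and stood at 37.6 and 19.5 TPM and at 10.3 and 6.48. Gaa, which digests glycogen, stood at 32.5 and 19.0. Glb1, the beta-galactosidase, stood at 24.8 and 12.6, and Neu1, the sialidase that works in a complex with it, at 23.9 and 16.7. The ranges of Naglu, Gaa, Glb1 and Neu1 overlapped between replicates. Within each replicate Naglu and Gaa were above Glb1 and Neu1, which changed places. Fuca1, the alpha-fucosidase, stood at 13.3 and 7.27 and Manba, the beta-mannosidase, at 10.4 and 5.91. With Sgsh these 3 made up, beside Acp5 and Tfeb, the genes under a TPM of 10 in a replicate. Of 29 further lysosomal enzymes, 14 reached a TPM of at least 10 in both. Of 24 further lysosomal membrane genes, 14 did so, led by Cd68 at 243 and 148 TPM and the channel gene Mcoln2 at 228 and 150.

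**Figure D3:**
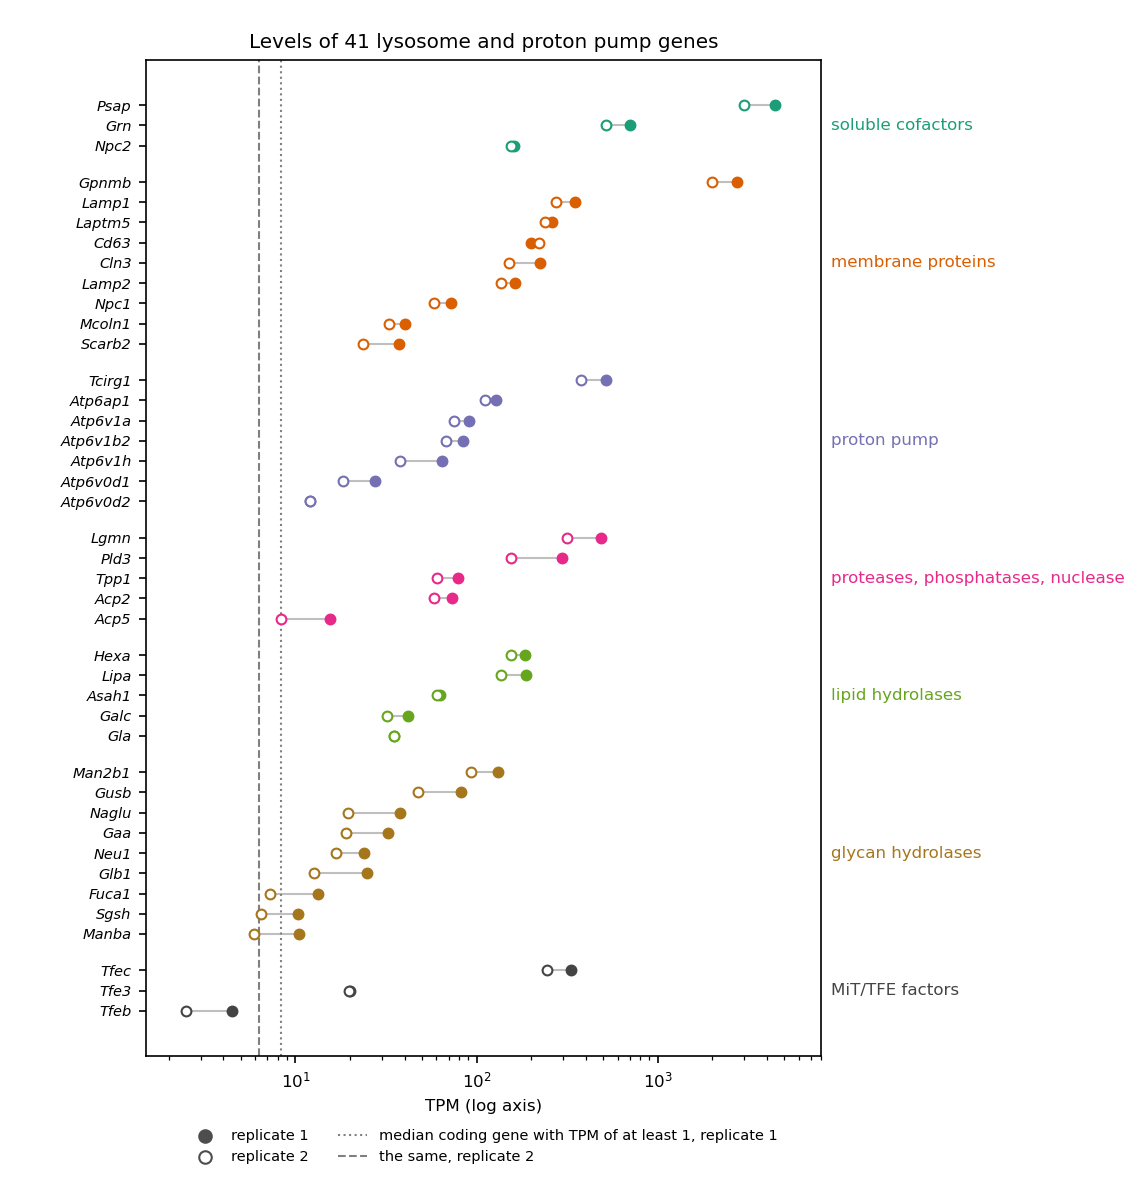
TPM on a log axis of each of the 41 genes (rows, grouped and coloured by role) in replicate 1 (filled) and replicate 2 (open), with dotted and dashed lines at the median of coding genes that reached 1 TPM in both replicates (8.29 and 6.31). Psap and Gpnmb lie far to the right, and the glycan hydrolases and Tfeb reach down to the lines.

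Nuclear RNA holds unfinished transcripts, and the authors' transcript table divides each gene's TPM among annotated transcripts, some of them labelled as protein-coding and others as retained intron or nonsense-mediated decay. The share of a gene's TPM outside protein-coding transcripts had a median of 11.1% in replicate 1 and 16.9% in replicate 2 over the 41 genes. Over the 8622 coding genes it was 26.5% and 25.4%. The median share of retained-intron transcripts alone was 5.96% and 6.10%, against 12.6% and 11.5%. Both sets had a median of 6 annotated transcripts per gene. Among genes with at least 1 annotated transcript of another type, the median was 12.5% and 22.1% over 37 genes of the set, against 33.0% and 32.4% over 7263. Among genes that reached 100 TPM in both replicates it was 6.37% and 7.47% over 16 genes of the set, against 31.5% and 29.1% over the coding genes. Genes are not replicates, and no test was made of these differences. Transcripts of a gene share sequence, so the division among them is an estimate.

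The genes of the set differed widely in this share, with 26 below the median of coding genes in both replicates and 11 above it in both. Psap lay at 0 because all 5 of its transcripts are annotated as protein-coding, and Psap-203 and Psap-202 held 53.2% and 44.3% of its TPM in replicate 1. Hexa, Gla, Acp5 and Atp6v0d2 were at 0% too, and of these 5 genes only Acp5 has a transcript of another type. In all, 16 genes lay under 10% in both replicates, among them Lgmn, Pld3, Laptm5, Lamp1, Lipa, Naglu and Glb1. How many coding genes lay under 10%, or below or above their median, in both replicates was not counted. At the other end, Cln3 had 65.2% and 76.3% outside protein-coding transcripts, the only gene of the set over 50% in both (18.9% of coding genes were). By the authors' second transcript table, over 50% in both was found for 8 of the 41 genes (32.3% of coding genes): Cln3, Manba, Npc2, Tfe3, Atp6v1b2, Neu1, Acp2 and Tcirg1. In the first transcript table, none of the 19 annotated transcripts of Cln3 held over 22.1% of its TPM in either replicate. Atp6v1h followed with 49.6% and 62.3%, spread over the retained-intron transcripts Atp6v1h-206, Atp6v1h-208 and Atp6v1h-203. Tcirg1 had 48.0% and 54.2%, with Tcirg1-207 at 15.3% and 15.8%. Npc2 had 47.1% and 47.0%, all of it on Npc2-203 at 32.9% and 36.8% and Npc2-202 at 14.2% and 10.2%, both annotated as retained intron. Tfe3 had 50.6% and 37.8%, and Tfec 35.2% and 28.8%. The other genes above the median of coding genes in both replicates were Npc1, Atp6v1b2, Neu1, Mcoln1 and Tpp1, which ranged from 30.3% to 49.8%.

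In 3 genes the share differed by over 15 percentage points between replicates. How many of all coding genes differed as much was not counted, so the number is not a trait of the set. Asah1 had 6.65% in replicate 1 and 45.7% in replicate 2, with the retained-intron transcript Asah1-203 at 5.64% and 43.2%. Grn had 6.06% and 24.1%, with Grn-208, also a retained-intron form, at 0.829% and 18.2%. Man2b1 had 8.50% and 24.8%, with Man2b1-203, annotated for nonsense-mediated decay, at 2.97% and 17.3%. In the authors' second transcript table Asah1-203 held 22.3% and 45.3%. The share of Asah1 outside protein-coding transcripts was 44.7% and 63.1% there, so that the replicates differed less. Grn and Man2b1 differed more there, at 10.7% and 35.9% and at 17.7% and 45.8%. The gene TPM of Asah1 was nearly equal in the replicates while its division among transcripts was not. Most genes had a lower TPM in replicate 2, and after the scaling described below the log2 ratio of Asah1 was 0.22. Gpnmb had 78.0% and 69.7% of its TPM on Gpnmb-201, a protein-coding form. Lamp2 has splice forms with different tails, and Lamp2-202 stood at 82.0 and 72.9 TPM, Lamp2-201 at 47.3 and 34.4, and Lamp2-203 at 0.82 and 0.37.

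**Figure D4:**
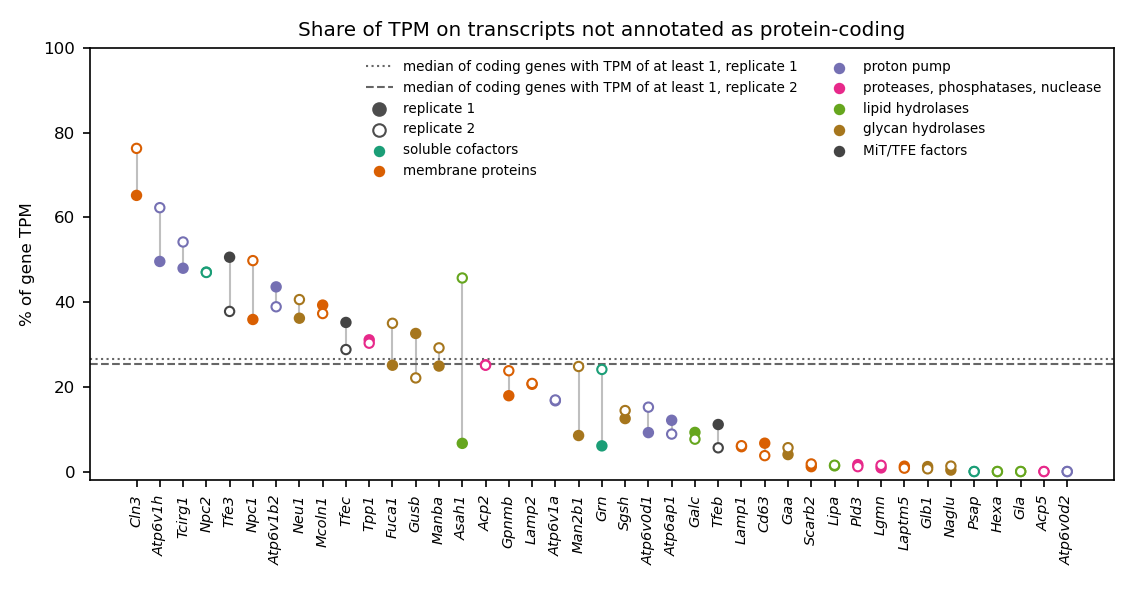
Share of each gene's TPM on transcripts not annotated as protein-coding (vertical axis, percent) in replicate 1 (filled) and replicate 2 (open), ordered by the mean and coloured by role, with dotted and dashed lines at the medians of coding genes (26.5% and 25.4%). Cln3 is highest at 65.2% and 76.3%, Asah1 has the longest gap between replicates, and 5 genes are at 0%.

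The replicates differed in starting amount and depth, so the ratio of replicate 2 to replicate 1 was taken from counts after scaling by TMM, a method that sets the bulk of genes to no change. None of the 41 genes differed by more than 2-fold. Of 10088 genes with a mean count of at least 50, only 1.18% did, so this does not set the 41 genes apart. The log2 ratios of the 41 genes ran from -0.61 to 0.48 with a median of -0.08. Their median absolute log2 ratio was 0.22, against 0.18 over all genes tested. Of the 41, 24 were lower in replicate 2, against 49.9% of all genes tested. Both Psap, at -0.15, and Gpnmb, at -0.13, were close to the centre. Their counts of 260989 and 166711, and of 198222 and 128773, make the counting error negligible beside the ratio. The highest ratios were those of Cd63 at 0.48, Npc2 at 0.41, Atp6v0d2 at 0.39 and Gla at 0.38, and none passed percentile 95 of all genes, 0.52. A ratio between single replicates describes their spread and has no test.

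The 9 glycan hydrolases were all lower in replicate 2, which was noticed after the values were seen. Fuca1 had a log2 ratio of -0.61, with a counting standard error of 0.11. Glb1 had -0.56 (standard error 0.07) and Naglu -0.54 (standard error 0.05). These 3 were the only genes of the set under percentile 5 of all genes tested, -0.49. Manba followed at -0.40, Gaa at -0.35, Gusb at -0.33, Man2b1 at -0.29, Sgsh at -0.25 and Neu1 at -0.07. Their median was -0.35, while 28 further lysosomal enzymes that could be compared had a median of -0.01, with 15 of 28 lower. Among the other roles, the median ratio was 0.16 for the pump, 0.15 for the lipid hydrolases, 0.06 for the membrane proteins, -0.08 for the MiT/TFE factors, -0.14 for the cofactors and -0.22 for the proteases, phosphatases and nuclease. Replicate 2 also had the smaller starting amount of RNA, whose part in these ratios cannot be told apart from other differences between the replicates.

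**Figure D5:**
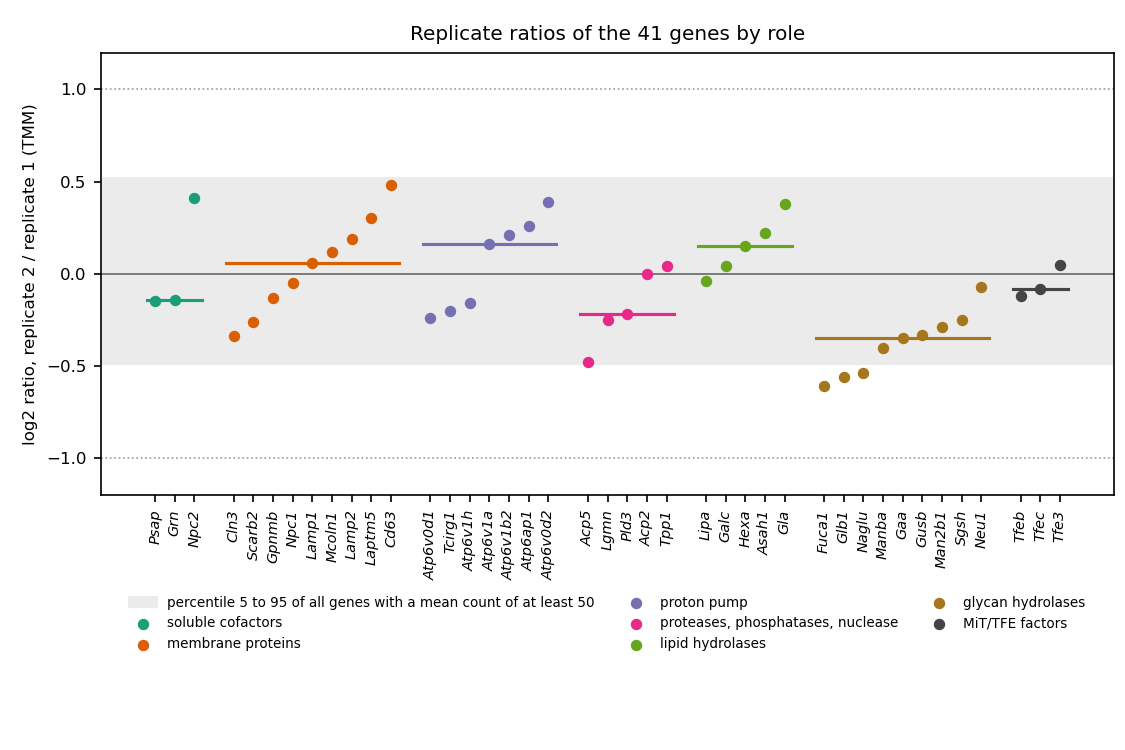
Log2 ratio of replicate 2 to replicate 1 after TMM scaling (vertical axis) for each of the 41 genes, grouped and coloured by role, with short lines at the role medians, a grey band from percentile 5 to percentile 95 of all genes tested (-0.49 to 0.52) and dotted lines at 2-fold. No gene reaches a dotted line, and all 9 glycan hydrolases lie below 0, Fuca1, Glb1 and Naglu below the band.

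Genes that overlap another entry are less certain than the rest. Of the 41, 14 overlap another annotated gene, and in 6 the other gene reached 1 TPM in both replicates. Beside Cln3 these are Lamp1 with Grtp1 at 9.78 and 9.23 TPM, Acp2 with Ddb2 at 5.49 and 4.83, and Npc1 with Rmc1 at 17.1 and 15.1. Atp6v1b2 overlaps Slc18a1 at 5.38 and 3.34 TPM, and Glb1 overlaps Tmppe on the same strand at 2.52 and 1.66. In the authors' gene table the posterior SD of the count, the uncertainty from dividing reads among genes, was above 0 in 10 of the 41 genes and at most 0.263% of the count.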

How the data were processed

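Total RNA of the nuclear fraction was analysed from 2 libraries of 1 group. Expected counts, TPM and, as a score, the posterior SD of each gene's count were deposited by the authors on mm10 with GENCODE M21, per the file headers, each library on its own. The names of the aligner and quantifiers and the use of strand were not given in the sources used here. A second transcript table of the authors, with estimated counts and TPM, was summed per gene as an alternative. Library totals were 21256531 and 15643649 expected counts.

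The 41 genes and the comparison lists were chosen with earlier results of these data known. Each of the 41 is given in both replicates. From the other lists the 3 highest genes and defining markers at 0 may be named. Mitf, Atp6v0a2 and Atp6v1b1 fall outside this rule and were named, after their values were seen, to complete their families. Levels are medians of log2(TPM + 1). Counts were rounded, scaled by TMM (edgeR 4.0.16, R 4.3.3), and compared after adding 0.5, for genes with a mean count of at least 50. The ratio step was run on simulated data in which the planted changes were larger than any ratio of the 41 genes. That run does not show how well ratios of their size are recovered. DESeq2 1.42.0 size factors, pseudocount 0.1, no count filter, a mean count of at least 200, CPM and rescaled TPM were alternatives. Promoter sequences are from RefSeq. Python 3.11.15, numpy 2.4.6, pandas 2.3.3 and scipy 1.17.1 were used. No p-value was computed.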

Additional observations from a re-analysis of the deposited data

How the results depend on the processing

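The median of log2(TPM + 1) over the 41 genes, 6.13 as reported, was 5.06 in the authors' second transcript table, 8.31 with TPM rescaled over coding genes of the nuclear genome and 7.73 from CPM of the counts. All 3 are other scales, on which other genes move too: in the second table the median log2 shift against the gene table was -1.07 in replicate 1 and -0.53 in replicate 2 for expressed coding genes, and -1.38 and -0.78, a larger drop, for the 41 genes. Left to 1 replicate, the median was 5.94 or 6.32. A TPM of at least 10 was reached by 31 of the 41 genes in the second table, 41 after rescaling, 40 in CPM, and 36 or 40 in a single replicate. The median share outside protein-coding transcripts, 14.0% over the replicates, was 21.1% in the second table, where that of coding genes was 38.6%. In single replicates it was 11.1% or 16.9%, and 12.2% without genes that overlap an expressed entry, a choice made after seeing the data. No gene of the set passed 2-fold between replicates under each of 5 alternatives. All 9 glycan hydrolases were lower in replicate 2 under each of them too, but the unscaled TPM ratio, with 39 of the 41 genes lower, says nothing about stability. Of 41 replicate ratios, 7 moved beyond counting error and 1 changed sign with the second table, and none did with DESeq2 size factors. In the promoter before the start alone the core was in 10 of 36 genes. Leaving out a replicate gives no replicate ratio. No paired analysis was possible because there is only 1 group. Depth limits Tfeb most, with 98 counts in replicate 2.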

Other observations

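The transcript with the largest share of a gene's TPM differed between the replicates for 6 of the 41 genes in the first transcript table and for 7 in the second. For 2 of them, Lgmn and Atp6v1h, it was the same pair of transcripts in both tables. How often the leading transcript of other coding genes differed was not counted, so these counts are not a trait of the set. Lgmn, with 20188 and 12045 expected counts, had 58.2% of its TPM on Lgmn-201 in replicate 1 and 30.4% in replicate 2, while Lgmn-202 held 40.9% and 68.1%. In the second table Lgmn-201 held 67.3% and 38.7%, and Lgmn-202 held 28.4% and 53.4%. Both are annotated as protein-coding. Atp6v1h-201 held 30.2% and 20.9% and the retained-intron form Atp6v1h-206 held 19.0% and 27.9%. Acp5, with 435 and 221 expected counts, had 64.1% and 11.0% on Acp5-201 and 35.9% and 82.0% on Acp5-202 in the first table. In the second, Acp5-201 held 61.2% and 59.8%. These genes were named after their values were seen.

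Manba differed between the tables: 24.9% and 29.2% of its TPM lay outside protein-coding transcripts in the first, and 71.5% and 82.3% in the second. The reads behind these divisions were not examined.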
